A study of Mus musculus with 8 samples.

Results

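Cytosolic RNA and DNA sensors are the proteins with which a cell recognises foreign or misplaced nucleic acid outside its nucleus. This account covers 10 mouse genes of that machinery: Ifih1, Dhx58, Mavs, Eif2ak2, Zbp1, Aim2, Ifi204, Ifi205, Tbk1 and Trex1. They were chosen by name, and each probe annotated to one of them was taken, which gave 21 of the 45281 probes and 10 of the 19057 named genes on the array. Of the 21 probes, 19 passed the filter on detection, and each of the 10 genes kept at least 1 probe and was tested.

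The study measured RNA on 8 Illumina BeadChip arrays, 4 for lymph node (LN) dendritic cells and 4 for splenic ones. All mice were C57BL/6 animals of 2 to 5 months with the genotype CCL17E/+, in which 1 copy of the chemokine gene Ccl17 carries the green reporter EGFP, and all had received 100 µg of LPS, a bacterial cell wall product, 15 h before harvest. The sorted cells of both organs were negative for NK1.1 and CD8alpha and positive for CD11c and CD11b. From mesenteric and peripheral nodes the EGFP-positive cells were taken, and from the spleens of the same mice the EGFP-negative ones. Organ and CCL17 status therefore cannot be told apart, no arm without LPS was analysed here, and the number of mice behind each array is not given in the sources used here. The labels number the samples as replicates without naming their animals, so a p-value measures the spread between these samples, which may be partly technical. In sorted populations such as these, fewer cells that express a gene and less RNA of it per cell cannot be told apart.

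As background, MDA5 (encoded by Ifih1) and RIG-I bind double-stranded RNA in the cytosol and signal through the mitochondrial adaptor MAVS to the kinase TBK1, which activates IRF3 and so the type I interferon genes. Double-stranded DNA is sensed by cGAS, which signals through STING to the same kinase, and by AIM2, which builds an inflammasome; AIM2 belongs to the PYHIN family, whose mouse genes lie side by side on chromosome 1. Many of these sensors are themselves induced by interferon, and nucleases such as TREX1 restrain the system by removing self DNA. Dendritic cells are a source of interferon and present antigen after such signals.

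Values are normalized log2 intensities of the brightest probe of each gene, and a fold is the log2 difference of LN minus spleen, so that a negative fold is a lower level in LN. A gene was called at an adjusted p under 0.05 in limma's two-sided moderated test over all 8252 genes tested. A probe counted as detected on an array where its detection p was under 0.01.

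The arrays carried 13743 to 14985 detected probes and mean intensities of 239 to 521. Ccl17, the gene behind the sort, had a mean of 12.51 in LN and 6.24 in spleen, a fold of 6.27 ± 0.28 (SE, n = 4 arrays per group). Spleen replicate 4 stood apart. It lay at -91.3 on the first principal component, which held 46.4% of the variance, where the other spleen arrays lay from -33.9 to -12.9 and the LN arrays from 29.9 to 47.3. Its mean intensity was the lowest, 239, and values without it are given beside the results it moves. Replicates 1 and 2 of both groups shared the first BeadChip and replicates 3 and 4 the second. Of the dendritic cell markers, 7 were tested and 0 were called by limma. The gate's own genes were weak: the CD11c gene Itgax reached detection on 3 LN and 3 spleen arrays, and the CD11b gene Itgam on 1 LN and 0 spleen arrays.

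Markers of other cell types differed between the sorts. All 5 erythroid genes tested were called lower in LN (1 of them, Alas2, was detected in spleen alone, which is how it passed the filter), with a summed normalized intensity of 196 to 454 in LN and 5090 to 39800 in spleen. Of the plasmacytoid dendritic cell markers, 3 of 5 tested were called lower (Tlr7, Pacsin1 and Bst2). That count was 1 without LN replicate 1 or on the second BeadChip alone, and 4 without spleen replicate 4. It was 2 without LN replicate 3 or 4 or spleen replicate 1 or 2. Siglech at -0.37 and Tcf4 at -0.41 were not called, and the sums of the 5 were 2630 to 4010 against 3570 to 6210. Among the markers not tested, Tlr9 and Cox6a2 were each detected on 0 LN and 3 spleen arrays. Ly6d was detected on 1 LN and 2 spleen arrays, Klk1 on 2 LN and 1 spleen array, and Ccr9 on no array. The macrophage and monocyte list had 1 of 7 tested called lower, Spic at -2.73, which carries most of its sum (1860 to 2250 in LN against 4160 to 5570 in spleen). The median fold of the list was 0.46, in the other direction, but -0.17 on the second BeadChip alone. C1qc at 1.04, Vcam1 at 0.83, C1qb at 0.68 and Csf1r at 0.46 were not called, nor were Adgre1 at -0.19 and Cd14 at -0.29. Without spleen replicate 4, or with the replicate number as a block, 2 genes of the list were called higher. B cell genes were called lower for 1 of 2 tested (sums of 204 to 392 against 442 to 624), with Ms4a1 and Pax5 on no array, and NK cell genes for 1 of 2, Klra3, which was detected in spleen alone (1770 to 3870 against 2140 to 4250), with Ncr1, Klrb1c, Gzmb, Klra8 and Eomes on no array. Of the markers of CD8alpha-type dendritic cells, 1 of 3 tested was called higher, Itgae at 4.56. Clec9a at -0.43 and Batf3 at -0.11 were not called, and the median of the list was -0.11. Its sums were 5460 to 7460 against 2810 to 7940, and Xcr1 and Cd8a were on no array. No neutrophil or T cell marker passed the filter, but some were detected in 1 organ. The neutrophil genes S100a8 and S100a9 were each detected on 3 spleen and 0 LN arrays, S100a8 at 6.33, 7.71, 7.41 and 4.66 in spleen and at 4.46 to 4.95 in LN, and the T cell gene Cd3d on 3 LN and 0 spleen arrays. The part of these other cells in the results below was not tested.

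Of the 10 sensor genes, 4 were lower in the LN cells and 0 were higher. The 4 were the RIG-I relative Dhx58, the PYHIN gene Ifi205, the RNA-dependent kinase gene Eif2ak2 and the Z-nucleic acid sensor gene Zbp1, and their folds ran from -1.76 to -0.88. Across all genes tested, 7.59% were called lower and 7.99% higher (15.6% in either direction). The other 6 genes were not called: Ifih1, Ifi204, Trex1 and Aim2 had negative folds and Mavs and Tbk1 positive ones, from -0.96 to 0.55. The median fold of the 10 genes was -0.79 (-0.93 without spleen replicate 4), against 0.03 over all genes tested, and 8 of the 10 folds were negative, against 47.6% of all genes. Every LN array lay below every spleen array for 3 genes, Dhx58, Eif2ak2 and Ifi205, where 9.94% of all genes did so, and every LN array lay above every spleen array for no member, where 12.2% of all genes did so. The members are given below by role.

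**Figure D1:**
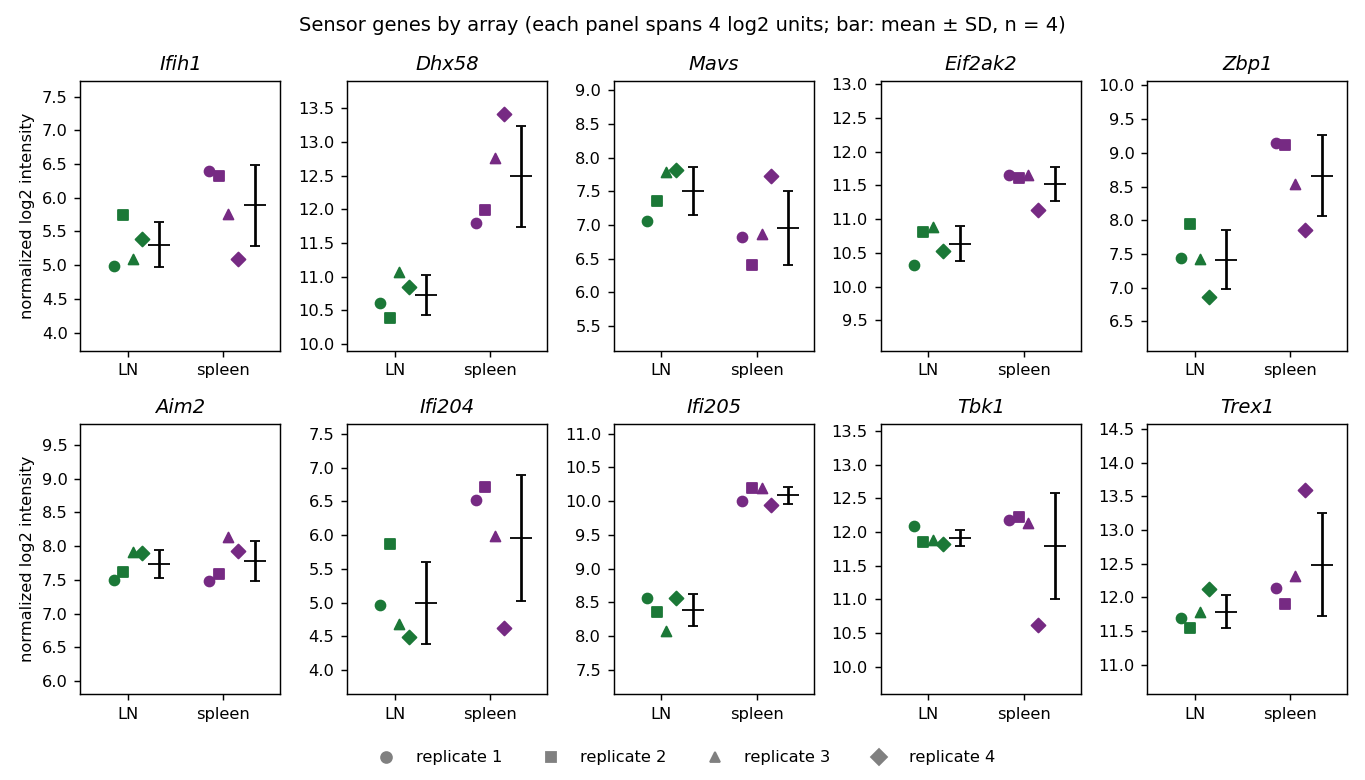
Normalized log2 intensity (vertical axis, 4 log2 units in each panel) of the 10 sensor genes on the 4 LN and 4 spleen arrays; marker shapes give the replicate number, and bars give the mean ± SD (n = 4). The LN and spleen points do not overlap for Dhx58, Eif2ak2 and Ifi205, and the diamond of spleen replicate 4 lies away from the other spleen points for Tbk1 (10.62), Trex1 (13.59) and Ifi204 (4.63).

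The promoters of 4 members are printed first. Those of Ifih1, Eif2ak2 and Ifi205 hold the core of the interferon-stimulated response element (ISRE), a sequence that interferon-activated factors bind. That of Aim2 does not, nor do those of Mavs, Tbk1 and Trex1, which are not printed. The windows run from 250 bases before to 50 bases after the gene's start and come from RefSeq on GRCm38.p6. The ISRE core was searched on both strands as GAAA, then any pair of bases, then GAAA, and capitals mark its matches. Ifih1 is on the minus strand at chr2:62646206-62646505, Eif2ak2 on the minus strand at chr17:78882523-78882822, Ifi205 on the minus strand at chr1:174031706-174032005 and Aim2 on the plus strand at chr1:173420354-173420653, and each is written 5′ to 3′ along its gene.
Ifih1: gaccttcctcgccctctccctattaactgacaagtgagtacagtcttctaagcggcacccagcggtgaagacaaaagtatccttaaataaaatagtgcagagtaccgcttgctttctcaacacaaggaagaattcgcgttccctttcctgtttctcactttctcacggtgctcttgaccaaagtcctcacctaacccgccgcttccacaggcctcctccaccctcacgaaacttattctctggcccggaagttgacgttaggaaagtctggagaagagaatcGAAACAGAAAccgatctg
Eif2ak2: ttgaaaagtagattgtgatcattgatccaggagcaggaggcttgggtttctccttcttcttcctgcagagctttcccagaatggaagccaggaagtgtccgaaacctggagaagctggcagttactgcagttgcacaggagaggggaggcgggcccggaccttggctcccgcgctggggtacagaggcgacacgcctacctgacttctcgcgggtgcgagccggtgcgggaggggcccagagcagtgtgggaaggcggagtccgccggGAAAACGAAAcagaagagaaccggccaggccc
Ifi205: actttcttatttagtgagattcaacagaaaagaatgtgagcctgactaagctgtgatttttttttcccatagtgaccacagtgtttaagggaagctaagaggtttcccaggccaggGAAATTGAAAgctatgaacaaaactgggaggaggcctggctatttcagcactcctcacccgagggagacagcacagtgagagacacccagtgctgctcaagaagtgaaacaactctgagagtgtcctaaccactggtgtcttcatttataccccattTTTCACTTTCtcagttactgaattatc
Aim2: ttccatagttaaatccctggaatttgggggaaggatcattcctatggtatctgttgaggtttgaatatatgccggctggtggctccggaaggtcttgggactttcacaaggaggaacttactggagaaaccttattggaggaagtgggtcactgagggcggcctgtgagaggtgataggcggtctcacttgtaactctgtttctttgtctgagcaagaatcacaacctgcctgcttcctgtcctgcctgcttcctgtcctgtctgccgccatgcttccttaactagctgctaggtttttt
The core was found in 3 of the 7 members with a window, Ifih1, Eif2ak2 and Ifi205, and no match lay in the windows of Mavs, Aim2, Tbk1 or Trex1. It occurred in 3.99% of the genes in the same RefSeq table (1079 of 27025). With the start base counted as 1, the match GAAACAGAAA in Ifih1 began at position 33, and GAAAACGAAA in Eif2ak2 at position 19. Ifi205 held 2 matches, GAAATTGAAA beginning at position -134 and, with the core on the other strand, TTTCACTTTC beginning at position 24. The gamma-activated site, searched as TTC, any 3 bases and GAA, matched in 1 member, Eif2ak2 (TTCCCAGAA beginning at position -178). It occurred in 9.55% of the genes in the RefSeq table. These matches describe the letters of the windows, and binding was not measured. No window was found under the names Dhx58, Zbp1 and Ifi204, so the count says nothing of these 3 members, of which Dhx58 and Zbp1 were called.

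The RNA helicases came in 2 kinds, and the one that senses was near the detection limit. Ifih1 encodes MDA5, which binds long double-stranded RNA. Its probe was detected on 1 of 4 LN arrays and 3 of 4 spleen arrays, with levels of 4.99, 5.74, 5.10 and 5.39 in LN replicates 1 to 4 and of 6.39, 6.32, 5.75 and 5.09 in spleen. Spleen replicate 4 was within the LN range, and spleen replicates 1 to 3 were above every LN array. The fold was -0.58 ± 0.31 (95% interval -1.28 to 0.11, limma adjusted p = 0.274), so no difference was called at this depth of signal. Without spleen replicate 4 the fold was -0.85 and passed the threshold (limma adjusted p = 0.0329). That was the spleen array on which the probe was not detected, and the filter was not set anew, so this call adds no support.

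Dhx58 encodes LGP2, a helicase of the RIG-I family that lacks the signalling domains and modulates MDA5 and RIG-I. It was 3.38-fold lower in LN. The LN arrays read 10.61, 10.39, 11.07 and 10.85 and the spleen arrays 11.79, 11.98, 12.76 and 13.41. The groups did not overlap, and spleen replicates 3 and 4, the pair on the second BeadChip, were the highest of the 8. The fold was -1.76 ± 0.33 (95% interval -2.50 to -1.01, limma adjusted p = 0.00497), and 1.82% of all genes tested had a more negative one. An exact two-sided permutation test of the single gene gave p = 0.0286, the smallest value that the 70 arrangements of 4 against 4 arrays allow. Spleen replicate 4 was 1.24 above the mean of the other 3 spleen arrays, and the call was kept whichever array was left out (limma adjusted p at most 0.0212).

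Mavs encodes the mitochondrial adaptor on which RIG-I and MDA5 signals converge. Its levels were 7.06, 7.36, 7.78 and 7.82 in LN and 6.83, 6.41, 6.87 and 7.73 in spleen. Spleen replicates 1 to 3 lay below every LN array, whereas spleen replicate 4 lay inside the LN range. The fold over all arrays was 0.55 ± 0.31 (95% interval -0.13 to 1.23, limma adjusted p = 0.294), and without spleen replicate 4 it was 0.80 and called higher in LN (limma adjusted p = 0.0303). The adaptor thus had the opposite sign to the helicases, with a call that depended on 1 array.

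Eif2ak2 encodes PKR, a kinase that double-stranded RNA switches on and that stops translation by phosphorylating eIF2alpha. LN arrays gave 10.33, 10.81, 10.88 and 10.52, and spleen arrays 11.66, 11.61, 11.66 and 11.14. After normalization, the lowest spleen value, replicate 4, was still above the highest LN value. The raw intensity of spleen replicate 4, the array with the lowest mean, was 1195.4, below the 1229.8 to 2113.3 of the LN arrays. PKR message was 1.84-fold lower in LN, a fold of -0.88 ± 0.19 (95% interval -1.31 to -0.45, limma adjusted p = 0.0108, exact permutation p = 0.0286). Its call was kept whichever array was left out (limma adjusted p at most 0.0416). On the second BeadChip alone, with 2 arrays per group, the fold was -0.70 and not called (limma adjusted p = 0.366). With each array scaled to the same median it was -0.69 and not called either (limma adjusted p = 0.324).

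Zbp1 encodes a sensor of Z-form RNA and DNA that leads to necroptosis through RIPK3. It read 7.43, 7.94, 7.43 and 6.86 in LN and 9.14, 9.11, 8.54 and 7.86 in spleen. The groups touched: LN replicate 2 was just above spleen replicate 4, and spleen replicates 1 to 3 were above all LN arrays. Its level was 2.37-fold lower in LN (fold -1.25 ± 0.33, 95% interval -1.98 to -0.51, limma adjusted p = 0.0288), and the exact permutation test of the gene alone gave p = 0.0571. The call was lost without LN replicate 1, 3 or 4 or spleen replicate 1, 2 or 3 (limma adjusted p up to 0.0915), while the fold ran from -1.52 to -1.06 over the 8 fits that each left out 1 array.

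The 3 PYHIN genes among the members had folds from -1.70 to -0.05, and their folds were not tested against each other. Aim2, whose protein binds double-stranded DNA and recruits ASC and caspase-1, read 7.50, 7.62, 7.92 and 7.91 in LN and 7.48, 7.58, 8.14 and 7.92 in spleen. The organs interleaved, and in both of them replicates 3 and 4 were above replicates 1 and 2. The fold was -0.05 ± 0.22 (95% interval -0.54 to 0.44, limma adjusted p = 0.929), so the interval leaves room for a difference of up to -0.54. A negative fold of this size has no settled sign, since BeadChip 1 alone gave 0.03 and BeadChip 2 alone -0.12.

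Ifi205 showed the most even separation of the members. Its protein is a PYHIN family member without a role as settled as that of AIM2. The 4 LN arrays gave 8.57, 8.35, 8.07 and 8.56, and the 4 spleen arrays 10.01, 10.19, 10.20 and 9.95. On this brightest probe no LN array came near any spleen array, and spleen replicate 4 was only -0.18 from the mean of the other 3 spleen arrays. On another Ifi205 probe, spleen replicate 4 was at 7.07, close to LN replicate 2 at 6.98. The gene was 3.25-fold lower in LN, with a fold of -1.70 ± 0.19 (95% interval -2.11 to -1.29, limma adjusted p = 0.000202, exact permutation p = 0.0286), and 1.95% of all genes had a more negative fold. The folds on the 2 BeadChips were -1.64 and -1.76, and no array left out took the limma adjusted p above 0.00148.

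Ifi204, the mouse gene whose protein p204 has been tied to DNA sensing through STING, was close to background. Detection was reached on 1 LN and 3 spleen arrays, with levels of 4.96, 5.86, 4.69 and 4.49 against 6.52, 6.71, 5.99 and 4.63. Spleen replicate 4 fell among the LN arrays and the other 3 spleen arrays lay above them all. The fold was -0.96 ± 0.46 (95% interval -1.98 to 0.06, limma adjusted p = 0.215), and without spleen replicate 4 it was -1.40 and called (limma adjusted p = 0.00985). With the replicate number as a block in the model, it was called lower as well (limma adjusted p = 0.029). The gene passed the filter mainly through the spleen arrays, of which replicate 4 was the one without detection, so these calls add no support.

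In RefSeq (GRCm38.p6), 13 protein-coding PYHIN genes follow each other on chromosome 1, from Aim2 at one end to Ifi205 at the other, with Ifi204 between Ifi207 and Mndal. The 2 ends of the run thus held the member with the flattest fold, -0.05, and the one with a fold of -1.70. These paralogs are similar in sequence, and whether a probe of one also binds RNA of another was not tested, so the separate levels of Ifi204, Ifi205 and their neighbours are uncertain.

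Tbk1 encodes the kinase shared by the RNA and DNA pathways. Its levels were 12.09, 11.86, 11.89 and 11.83 in LN and 12.19, 12.23, 12.14 and 10.62 in spleen. Spleen replicates 1 to 3 lay just above every LN array and spleen replicate 4 far below all of them. Over all arrays the fold was 0.12 ± 0.33 (95% interval -0.61 to 0.85, limma adjusted p = 0.865), and without spleen replicate 4 it was -0.27 and still not called (limma adjusted p = 0.137). The sign of the fold thus depended on 1 array.

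Trex1 encodes the cytosolic exonuclease that degrades DNA before cGAS can meet it. It read 11.69, 11.55, 11.78 and 12.12 in LN and 12.13, 11.90, 12.32 and 13.59 in spleen. The spread was wide in spleen, where replicate 4 was 1.48 above the mean of the other 3, and LN replicate 4 was above spleen replicate 2. The fold of -0.70 ± 0.33 was not called (95% interval -1.43 to 0.03, limma adjusted p = 0.210), and it was -0.33 without spleen replicate 4 (limma adjusted p = 0.173). With the replicate number as a block, Trex1 was called lower (limma adjusted p = 0.0401).

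**Figure D2:**
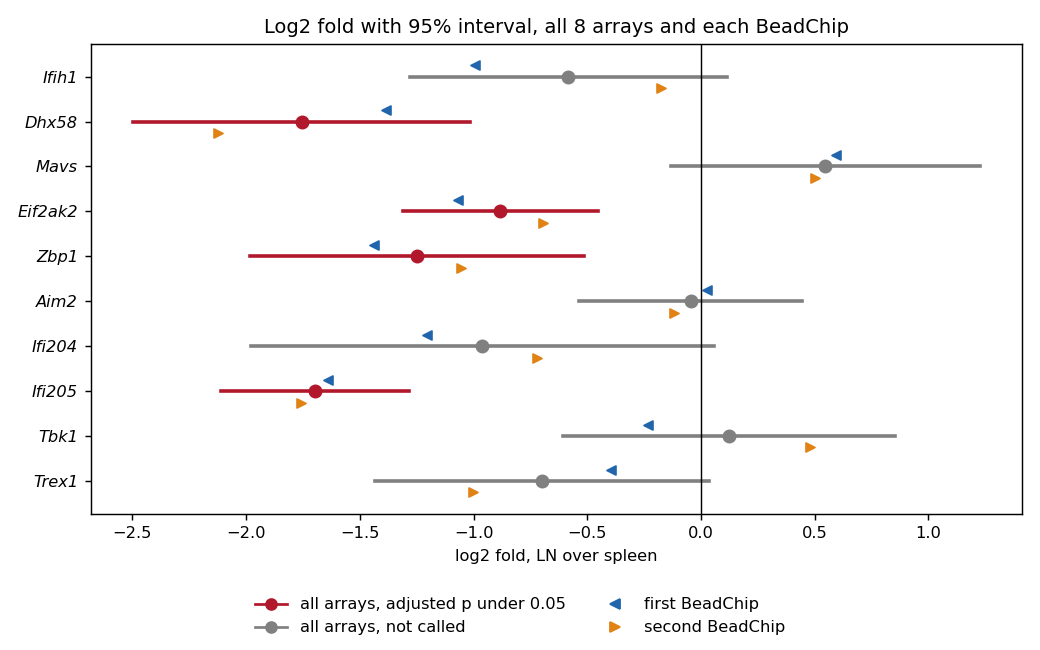
Log2 fold of LN over spleen (horizontal axis) of each sensor gene, with circles and lines for the fold and its 95% interval over 8 arrays (n = 4 per group) and triangles for each BeadChip alone (2 arrays per group). The intervals of Dhx58, Eif2ak2, Zbp1 and Ifi205 lie below 0, and the triangles of Dhx58 (-1.39 and -2.12) and Zbp1 (-1.44 and -1.05) show how far the BeadChips differ.

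Every probe of the members was then read, since a gene's brightest probe can miss a transcript form. Of the 19 probes that passed, 9 were called, all lower in LN, against 6.18% called lower and 12.4% called either way among the 14726 probes tested. Detection on at least 1 array of each organ held for 18 of the 19, and 8 of these were called. The shares cover every probe tested, also those detected in 1 organ alone, so they are not a like set for the 18. Probes of 1 gene share their target and are not independent. Every LN array lay below every spleen array on 10 of the 19 probes, 9 of them among the 18, against 9.16% of all probes tested.

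Dhx58 had 4 probes, and the 3 detected in both organs were called lower in LN (adjusted over probes). Their folds were -1.76 ± 0.33, -1.78 ± 0.30 and -1.42 ± 0.23, with limma adjusted p of 0.00596, 0.00312 and 0.00223. The remaining probe was not detected on any LN array but on all 4 spleen arrays, so only a bound can be given: its signal was at least 1.39-fold higher in spleen (limma adjusted p = 0.00734). That bound sets the mean in spleen against the lowest signal that counted as detected, or the probe's own where higher, on each LN array. The probe passed the filter through the spleen arrays alone, so it had to differ and adds no support.

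All 3 probes of Ifi205 were called, with folds of -1.70, -1.38 ± 0.33 and -1.32 ± 0.21 (limma adjusted p = 0.000272, 0.0191 and 0.00201). For Zbp1, 1 of 3 probes was called, the brightest at -1.25 (limma adjusted p = 0.0345). The other Zbp1 probes had -0.82 ± 0.26 (limma adjusted p = 0.0632) and -1.16 ± 0.38 (limma adjusted p = 0.0801). Those 2 weaker Zbp1 probes were detected on all 4 spleen arrays but on only 2 and 1 of the LN arrays. The second probe of Aim2 had a fold of -0.24 ± 0.31 (limma adjusted p = 0.734), and that of Trex1 -0.88 ± 0.33 with all LN arrays below all spleen arrays (adjusted p = 0.120). The other Trex1 probe and 1 Ifi204 probe were detected on no array. Every gene with more than 1 passing probe, 5 in all, had the same sign on each of them.

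**Figure D3:**
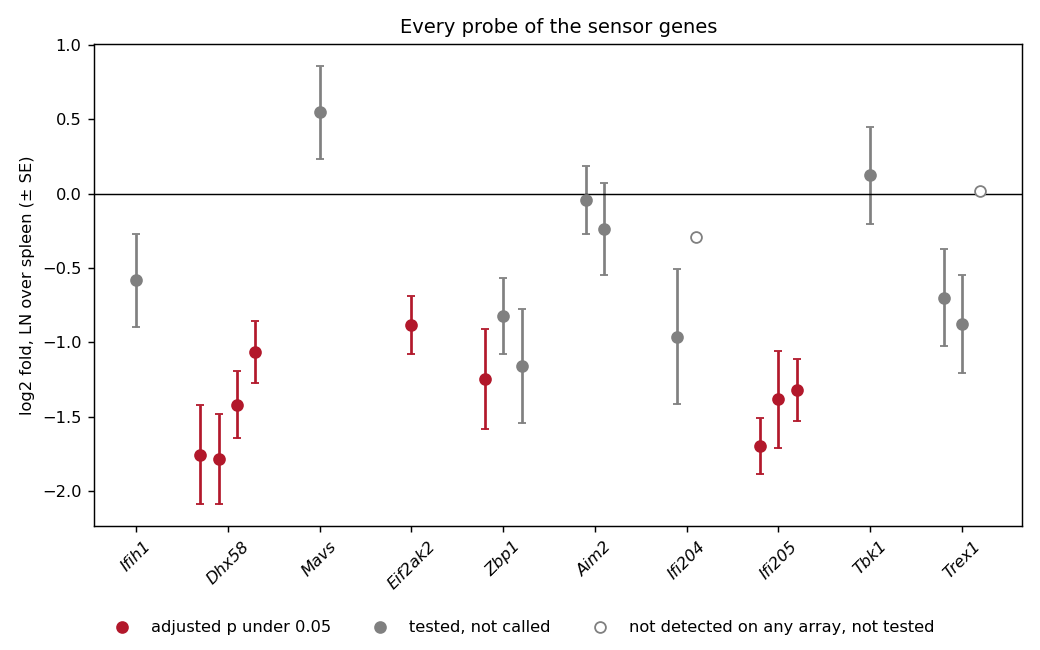
Log2 fold of LN over spleen ± SE (vertical axis, n = 4 arrays per group) for each of the 21 probes of the sensor genes, with red for probes called and open circles for the 2 probes detected on no array. The Dhx58 and Ifi205 probes are all red and below 0; the Dhx58 probe nearest to 0 was not detected in LN, so its point is no measured fold.

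How much each gene varied within a group was also unequal. The SD was larger in spleen than in LN for 8 of the 10 members, as for 76.2% of all genes tested, and without spleen replicate 4 for 3 of the 10, against 40.6% of all genes. That array lay over 1 log2 unit from the mean of the other spleen arrays for 7 members, against 30.7% of all genes. It was above them for 3 members (Dhx58, Mavs and Trex1) and below them for 4: Ifih1 by -1.07, Zbp1 by -1.07, Ifi204 by -1.77 and Tbk1 by -1.56. It thus moved some sensors apart from LN and others toward LN.

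Leaving out each array in turn gave between 3 and 7 members called, while the count over all 8252 genes ran from 889 to 1992. Dhx58, Eif2ak2 and Ifi205 were called in each of these 8 fits. Without spleen replicate 4, 7 members were called by limma, 1 higher (Mavs) and 6 lower (the 4 named above with Ifih1 and Ifi204), and 24.1% of all genes were called. Ifih1 and Ifi204 were each detected on 1 LN and 3 spleen arrays, and the array left out was the spleen array without detection. They passed the filter mainly through spleen, and it was not set anew for these fits, so their calls add no support. With the replicate number as a block, 6 were called lower, the same 4 with Ifi204 and Trex1, and with the BeadChip as a block 4 were, where 21.1% of all genes were called in either fit. The first BeadChip alone gave 6 called lower, with 22.1% of all genes called, and the second alone 2, Dhx58 and Ifi205, with 4.35% of all genes called. The members' counts are to be read against these shares, which moved too. Dhx58 and Ifi205 were called lower under every alternative tried.

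**Figure D4:**
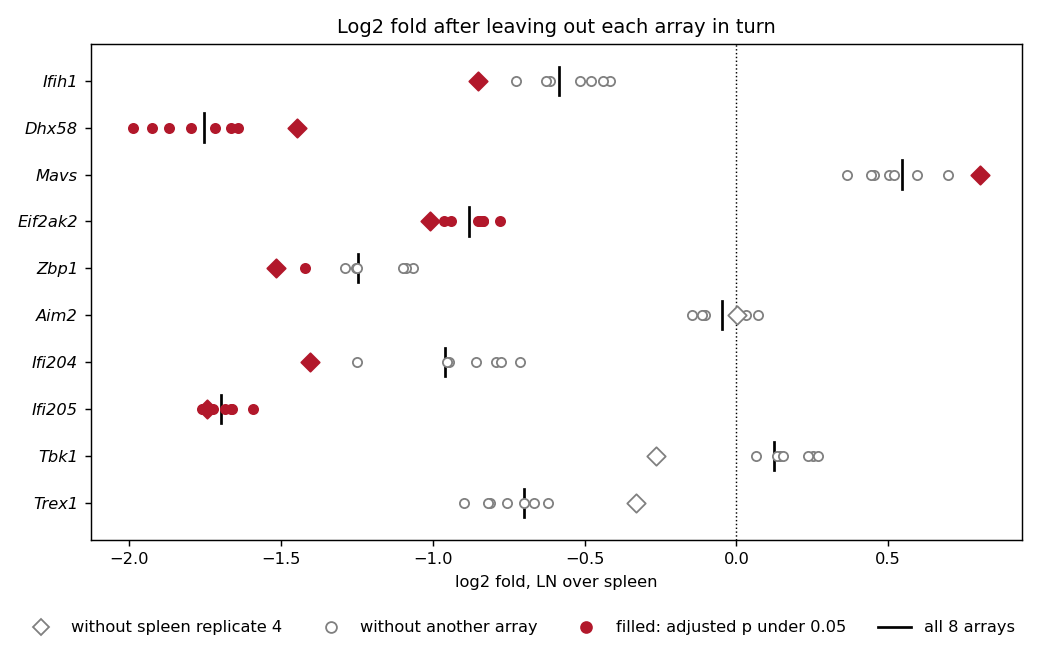
Log2 fold of LN over spleen (horizontal axis) of each sensor gene after leaving out each of the 8 arrays in turn; diamonds leave out spleen replicate 4, filled symbols have a limma adjusted p under 0.05, and the black line is the fold over 8 arrays. For Tbk1 the diamond lies at -0.27 where the fold over all arrays is 0.12, and for Ifi205 all symbols are filled and close together.

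The genes around the members were read by role, from lists chosen by known function. Among 13 other genes of RNA sensing, 1 was called lower and 1 higher, with a median fold of 0.12. The sign of that median depended on single arrays (-0.21 without spleen replicate 4 and -0.023 without LN replicate 2), it was -0.20 on the first BeadChip, and the replicate block gave 2 called higher and 2 lower. RIG-I, listed as Ddx58 and the sensor of RNA with a 5′ triphosphate, was lower in LN at -1.71 ± 0.22 (limma adjusted p = 0.000563). Dhx33, a helicase that binds RNA, was higher at 0.72 ± 0.19 (limma adjusted p = 0.0305), a call that was lost without any 1 of the LN arrays or spleen replicate 1 or 3 (adjusted p up to 0.0836). The RIG-I-like helicases thus gave 2 genes called lower, Ddx58 and Dhx58, and Ifih1 near the detection limit.

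Of 11 other DNA sensing genes tested, 4 were called lower and 0 higher, with a median of -0.62. All 4 are PYHIN genes: Ifi213 at -2.82 ± 0.31 (limma adjusted p = 0.000214), Ifi207 at -1.92 ± 0.36 (0.00473), Mndal at -1.87 ± 0.22 (0.000347) and, named after its value was seen, Ifi214 at -1.43 ± 0.30 (0.0089). Ifi207 and Mndal are the neighbours of Ifi204 on the chromosome. Cgas, which makes the messenger that activates STING, had a fold of -0.62 ± 0.29 (limma adjusted p = 0.208) and without spleen replicate 4 one of -0.87 (adjusted p = 0.0119). Without that array, 6 genes of the list were called lower and 1 higher, with a median of -0.87. Ifi202b, Ifi209, Xrcc5 and Hmgb1 were detected on no array.

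Of the 13 adaptors, kinases and factors downstream of the sensors, 1 was called higher and 1 lower, with a median of 0.25. Irf7, the interferon-induced factor that amplifies interferon production, was lower in LN at -2.14 ± 0.33 (limma adjusted p = 0.00141). Irf3, its constitutive relative, was at 0.05 ± 0.16 (adjusted p = 0.898) and Sting1, the adaptor of cGAS, at 0.02 ± 0.21 (adjusted p = 0.969). Ikbke, the kinase most like TBK1, had a fold of 0.87 ± 0.39 (limma adjusted p = 0.186) that was 1.19 and called without spleen replicate 4 (adjusted p = 0.0201), and it was called with the replicate number as a block too (adjusted p = 0.0481). Tradd, an adaptor of death receptors that also joins the MAVS complex, was detected on all 4 LN and 0 spleen arrays and was at least 1.42-fold higher in LN (limma adjusted p = 0.018), a call lost without LN replicate 1 (adjusted p = 0.0599). It passed the filter through the LN arrays alone, so it had to differ and says nothing of the list. With the replicate block, or without spleen replicate 4, 3 genes of this list were called higher and 1 lower.

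The inflammasome and necroptosis list had 2 of 10 tested genes called lower, 0 called higher and a median of -0.39. Mlkl, the executioner of necroptosis downstream of ZBP1 and RIPK3, was lower at -1.33 ± 0.22 (limma adjusted p = 0.00215), and Il1b, the cytokine that inflammasomes release, at -0.75 ± 0.21 (adjusted p = 0.0386). Pycard, which encodes the ASC that AIM2 recruits, was at 0.02 ± 0.25 (adjusted p = 0.972), and Casp1 was at -0.38 ± 0.15 (adjusted p = 0.114; -0.45 and 0.0256 without spleen replicate 4). The Il1b call was lost when any array but spleen replicate 4 was left out (adjusted p up to 0.111), and without that array 3 genes of the list were called lower. Of 7 tested genes around eIF2alpha, 0 were called by limma, with a median of -0.11, while the PKR gene itself was lower. Eif2ak1 was the only other eIF2alpha kinase gene among the 7. Eif2ak3 and Eif2ak4 did not pass the filter, and Eif2s1, the gene of eIF2alpha, was not among the genes named on the array. Without spleen replicate 4, and with the replicate block, 1 of the 7 was called lower, and the median without that array was 0.008.

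Nucleases and other restraining factors had 1 of 20 called higher and 3 lower, with a median of -0.13. The 3 were Samhd1, which encodes an enzyme that lowers the pool of DNA precursors, Nlrx1 and Nlrc5. Samhd1 was at -0.62 ± 0.16 (limma adjusted p = 0.028), Nlrx1 at -0.65 ± 0.19 (0.0434) and Nlrc5 at -0.87 ± 0.26 (0.0484). Dnase2a, the lysosomal nuclease, was higher in LN at 0.85 ± 0.25 (limma adjusted p = 0.0462), with detection on 4 LN and 2 spleen arrays. None of these 4 calls was stable: each was lost when any array other than spleen replicate 4 was left out (adjusted p up to 0.133), which left 0 of the list called. Without spleen replicate 4, 5 genes of the list were called lower and 1 higher. Adar, which edits double-stranded RNA so that MDA5 ignores it, was at -0.01 ± 0.28 (adjusted p = 0.986).

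Interferon signalling and output had the most negative median of these lists: 10 of 17 tested genes were called lower and 1 higher, with a median of -1.48. Cxcl10, a chemokine induced by interferon, was at -4.21 ± 0.25 (limma adjusted p = 9.37e-06), Oas2, which senses double-stranded RNA to activate RNase L, at -2.45 ± 0.23 (8.35e-05) and the antiviral gene Mx2 at -2.30 ± 0.24 (0.000137). Tyk2, a kinase of the interferon receptor, was higher at 0.68 ± 0.15 (limma adjusted p = 0.011). The count of genes called lower was 10 to 14 over the fits that each left out 1 array, the highest without spleen replicate 4 (median -1.39). Ifnb1, Ifna4, Ifnar1 and Ifit1 were detected on no array, so the level of interferon itself was not measured here. Among 9 reference genes, 2 were called higher and 0 lower, with a median of 0.34, and without spleen replicate 4 the median was 0.021 with 3 called higher. The summed normalized intensity of the interferon list was 59900 to 85800 in LN and 117000 to 165000 in spleen; its part in the folds of the sensors was not tested.

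**Figure D5:**
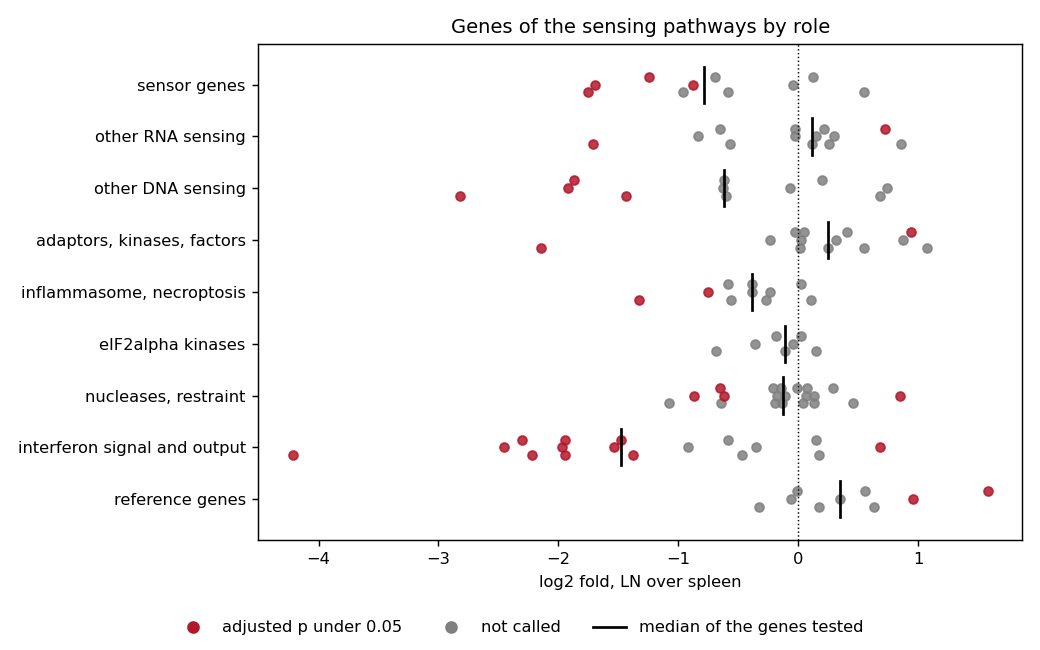
Log2 fold of LN over spleen (horizontal axis) of each tested gene of the sensors and of the lists around them, 1 row per role, with red for a limma adjusted p under 0.05 and a black line at the median of each list. The interferon row lies furthest left, with a median of -1.48, the sensor genes have a median of -0.79, and the adaptor and reference rows have medians of 0.25 and 0.34 (0.19 and 0.021 without spleen replicate 4).

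The genes most like 2 of the members over the 8 arrays were found by the root mean square (RMS) difference of centred log2 levels, as a description with no test. For Ifih1 these were Spata6 (0.16), Parp12 (0.18), Nfe2l3 (0.18), St6gal1 (0.19) and Lin54 (0.19). For Aim2 they were Anxa5 (0.070), Chchd4 (0.071), Pfdn4 (0.075), Papss1 (0.093) and Mrpl30 (0.094). Ifih1 was not detected on 4 of the 8 arrays, and the points share their groups, BeadChips and spleen replicate 4.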

How the data were processed

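RNA was extracted with TRIzol and labelled as biotinylated cRNA, per the labels' protocols, for 8 BeadChip arrays. Each probe has, per the file headers, a bead intensity that was not normalized and a detection p-value on every array of the deposited table. The authors' processed log2 values, with a median of 6.28 on each array, followed the log2 of those intensities (lowest correlation 0.998989) and served only as an alternative. The software Partek appears, per the submitters' processing notes, with no version or role, and the background step is not given there.

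Background correction used the 936 negative controls that the detection p implies, followed by quantile normalization and log2 after an offset of 16 (neqc, limma 3.58.1, R 4.3.3, jsonlite 2.0.0; promoters and plots with Python 3.11.15, pandas 2.3.3, matplotlib 3.10.9). One blank line was left out. Of the probes, 34885 had 1 symbol, 18 several and 10378 were not listed; 34807 matched the current gene table by Entrez identifier and 0 symbols changed. Probes detected (p under 0.01) on at least 4 of 8 arrays were kept, 14726 in all, 12589 of them with 1 symbol, and the brightest probe stood for a gene. lmFit and eBayes with an intensity trend gave the tests, with Benjamini-Hochberg adjustment over all 8252 genes or all 14726 probes. The number of arrays limits the precision. The procedure was tested on simulated data. No 2 arrays were a repeat deposit (highest correlation 0.989).

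Groups and replicate numbers came from titles and source names. The series text has both organs sorted in parallel from the same mice, so the numbers were taken as pairs for the replicate block. Same-numbered arrays of the organs deviated together from their group means (correlations of 0.31, 0.57, 0.27 and 0.54). Differently numbered arrays on the same BeadChip correlated at 0.58, 0.41, 0.42 and -0.18, so this check does not separate the number from the BeadChip. The main fit used no pairs, and the replicate block is an alternative, since the sources used here name no such fit. The named genes were all members, up to 3 called genes per direction of each other list by fold, a fixed set of pathway and sort genes regardless of call, and the 5 genes most like Ifih1 and Aim2. The members and lists were chosen with earlier results of these data known. Alternatives covered offset, background, normalization, filters, probe choice, weights, blocks, BeadChips and left-out arrays.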

Additional observations from a re-analysis of the deposited data

Results flagged for a closer look

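In 20 groups of 4 arrays (10 sensor genes in each organ), the gap of the highest or lowest array to its neighbour was set against the range of the group. It passed Dixon's 95% critical value in 2 groups, and chance alone flags about 5% of groups. Eif2ak2 in spleen replicate 4 was at 11.14, below the other spleen arrays at 11.61 to 11.66. Tbk1 in spleen replicate 4 was at 10.62, below the other spleen arrays at 12.14 to 12.23. Both lie on the array that stood apart from the rest over all genes.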

How the results depend on the processing

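Over the members and alternatives, 184 values kept their direction and side of the threshold, 10 lost the call, 14 gained one and 10 turned sign. The count of genes called (1285) was 2698 with array weights, 359 on the second BeadChip alone and 2620 with a replicate block without the fourth pair, an alternative chosen after seeing the data; it was 889 to 1992 leaving out 1 array, the highest without spleen replicate 4. The count of members called (4) was 7, 2 and 8 under the same 3 settings, 2 under median scaling and 3 to 7 leaving out 1 array. The count of probes called (1831) was 4252, 488 and 3927, and 1232 to 2952 leaving out 1 array. With the replicate number as a block, 1745 genes, 6 members and 2650 probes were called, and with the BeadChip as a block 1741 genes. Median scaling moved the median of all genes from 0.03 to 0.24 and gave 625 genes higher and 315 lower, against 659 and 626; under it Eif2ak2 (-0.69, adjusted p = 0.324, or -0.92 relative to that median) and Zbp1 (-1.03, adjusted p = 0.208) were not called. Signs turned for Aim2 (0.20 under median scaling, 0.11 with array weights, 0.027 on the first BeadChip), Tbk1 (-0.23 with array weights, -0.23 on the first BeadChip, -0.24 with the block without the fourth pair), Sting1 (-0.13 on the second BeadChip), Irf3 (-0.13 with array weights, -0.13 on the first BeadChip, -0.062 with that block), Pycard (-0.15 on the second BeadChip) and Adar (0.23 under median scaling, 0.30 with array weights). Leaving out 1 array, Aim2 ran from -0.15 to 0.073, Tbk1 from -0.27 to 0.27, Sting1 from -0.089 to 0.19, Irf3 from -0.063 to 0.16, Pycard from -0.12 to 0.13 and Adar from -0.39 to 0.13. Their causes were not tested. Genes near background, Ifih1 and Ifi204 among them, are limited by signal.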

Other observations

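Probes of 1 gene did not always rank the spleen arrays alike. The brightest Zbp1 probe read 9.14, 9.11, 8.54 and 7.86 in spleen replicates 1 to 4, while another Zbp1 probe read 5.83, 5.65, 7.13 and 7.10. The first was higher on the first BeadChip and the other on the second. The second Ifi205 probe read 8.42, 8.45, 8.42 and 7.07 in spleen, where the brightest one read 10.01, 10.19, 10.20 and 9.95.

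Before normalization, spleen replicate 4 had the highest raw intensity of its group on the brightest probes of Trex1 and Dhx58, although its mean intensity over all probes was the lowest. For Trex1 it read 6337.5, with 5796.9, 4675.9 and 4229.0 in replicates 1 to 3, and for Dhx58 5642.3, with 4634.5, 5032.8 and 5576.3. The Dhx58 probes differed in this. Replicate 4 was the highest on another (4168.6, with 3678.3, 3782.3 and 3764) and the lowest on a further one (847.3, with 1146, 1157.8 and 1153.5). On the Dhx58 probe not detected in LN it read 91.2, with 140.6, 115.1 and 90.8. For Tbk1 the raw intensity of spleen replicate 4 was 868.7, with 6066.4, 5818.3 and 3786.8 in the others.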
